A study of Mus musculus with 6 samples.

Results

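Stromal-vascular cells of mouse inguinal white fat (iWAT) were compared after 2 days in a beige induction medium and just before it, across all genes of the deposited count table. The comparison sets the libraries labelled D2 against those labelled D0, each with replicate numbers 76 and 77, and so compares 4 of the 6 RNA-seq libraries of the series. The table lists 45808 genes, of which 14459 had enough counts to be tested. All cells were wild type (WT) and were grown from the fat of male mice 8 weeks old. Day 0 cells were confluent and had seen no inducer. Day 2 cells had spent 2 days with 0.5 mM isobutylmethylxanthine (IBMX), 5 µM dexamethasone, 125 µM indomethacin, 850 nM insulin, 1 nM triiodothyronine and 1 µM rosiglitazone. The day 6 libraries are given here as values beside some genes. They also entered the scaling, the choice of genes to test and the model fit. Their cells had been moved to a maintenance medium that keeps insulin, triiodothyronine and rosiglitazone and leaves out the other agents. All groups therefore share the WT genotype, the serum-containing base medium and the plating of an unsorted fraction, as far as the labels describe it.

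The agents came as 1 mixture, and no library holds cells kept confluent for the same time without it. Each value below is 1 library, with 2 libraries a day in the order replicate 76, replicate 77, and positions are on GRCm38. Values at day 6 are set beside those of day 2 as a description, since any contrast of the pair would use the same day 2 libraries again. The effects of the agents, of time in culture and of the change of medium cannot be told apart. The labels do not say whether 76 and 77 mark separate mice or separate cultures, so the p-values measure only the spread between these libraries, which may be technical. With 2 libraries a day an exact permutation test of a single gene cannot go below p = 0.333, and the tests below come from a model fitted across all genes.

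Stromal-vascular cells hold the fibroblast-like precursors of fat cells. Each agent of the mixture acts on a known switch. IBMX blocks the phosphodiesterases that break down cyclic AMP and so keeps protein kinase A and the factor CREB active, and dexamethasone activates the glucocorticoid receptor. Insulin at high dose drives its own receptor and that of insulin-like growth factor. Rosiglitazone is a ligand of PPAR gamma, the nuclear receptor that directs fat cell formation, and triiodothyronine is the active thyroid hormone. Indomethacin inhibits the cyclooxygenases of prostaglandin synthesis and can also bind PPAR gamma. Confluent precursors given such a mixture usually divide again before they round up, take down their stress fibres and collagen matrix, and begin to store fat.

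The 4 libraries held 23400500 to 29458374 counts in genes. Values are CPM, counts scaled to sequencing depth, on library sizes adjusted by the trimmed mean of M-values, and folds and adjusted p-values come from edgeR's quasi-likelihood test with Benjamini-Hochberg adjustment over all tested genes at a threshold of 0.05. Of the tested genes 67.1% passed, with 33.6% higher at day 2 and 33.6% lower. The counts of each gene list below stand beside these shares, which are not matched to the level of a list's genes. Genes higher by more than 2-fold made up 12.3% (1774 genes) and genes lower by more than 2-fold 17.9% (2586 genes). The size of this excess of falls depended on the scaling. With library totals alone 2101 genes rose and 2347 fell by more than 2-fold. It also narrowed when replicate 77 of day 0 was left out. In the main fit the excess of falls lay mostly among less abundant genes. Of 4 groups of tested genes split by level, the lowest (median 0.803 CPM) had 481 rises and 1059 falls beyond 2-fold. The next (median 10.1 CPM) had 463 and 698. The upper groups were near even, with 414 and 394 (33.1 CPM) and 416 and 435 (104 CPM). The share called ran from 47.6% in the lowest group to 76.9% in the highest. By more than 4-fold 511 genes rose and 1212 fell, by more than 16-fold 118 rose and 234 fell, and by more than 64-fold 33 rose and 48 fell. The median log2 change over all tested genes was 0.0042. It moved to 0.12 when library totals alone set the scale and to 0.15 without replicate 77 of day 0, and the share of calls that were higher then stood at 57.2% and 58.8%. The 10 most abundant genes took 14.6% and 13.3% of the counts of the day 0 libraries and 6.65% and 6.96% at day 2.

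**Figure D1:**
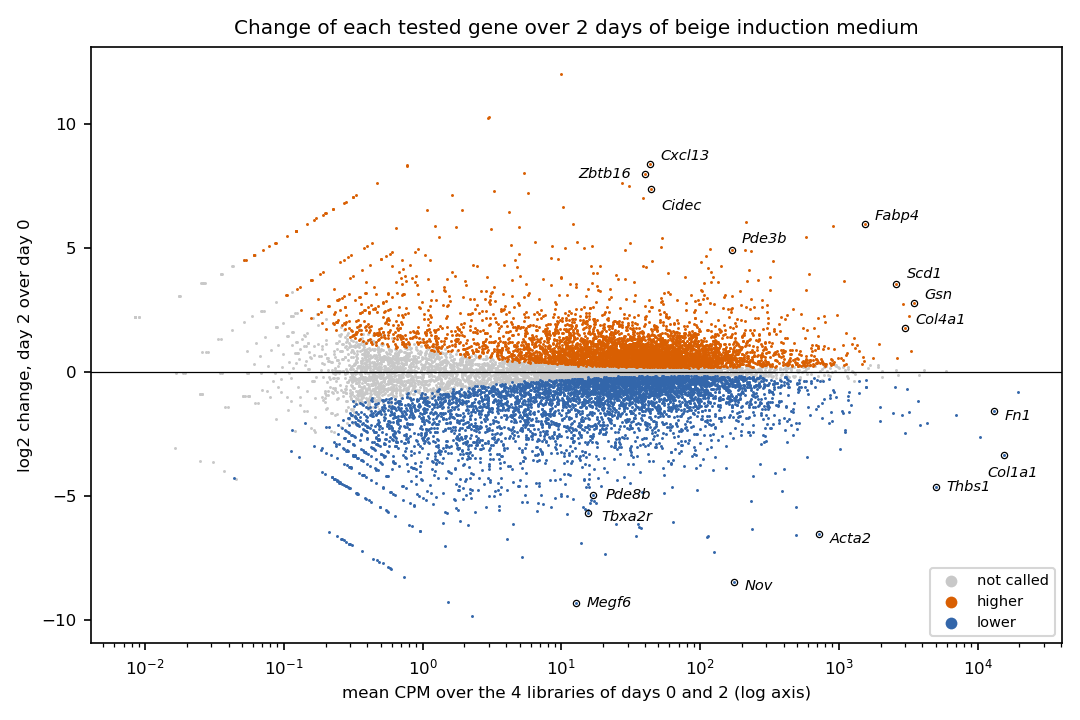
Log2 change from day 0 to day 2 (vertical axis) against the mean CPM of the 4 libraries (log axis) for each tested gene, with genes that passed the test upward in orange, those that passed downward in blue and the rest in grey. The 4853 higher and 4851 lower genes spread over the whole range of levels. Falls beyond 2-fold outnumber rises mainly among the less abundant genes. The matrix genes Col1a1 and Fn1 and the lipid gene Scd1 stand at the far right.

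The marker genes of the labelled cells were present. Among 12 fibroblast and preadipocyte markers, all tested, 10 fell and none rose, with a summed level of 81644 and 72851 CPM at day 0 and 21658 and 23418 CPM at day 2. Of 11 tested adipocyte markers 10 rose and 1, Cfd, fell. Their summed level went from 338 and 424 CPM to 5535 and 4958 CPM, and Lep (leptin) and Cidea, a lipid droplet gene of brown fat cells, were at 0 in each of the 4 libraries. Cfd missed the threshold when replicate 77 of day 0 was left out, with an adjusted p of 0.0542 by edgeR. Markers of other cell types were low. Endothelial markers summed to 38.9 and 33.3 CPM at day 0 and 14.4 and 14.999 CPM at day 2, with 1 of 7 tested markers higher and 6 lower, a count that was 2 without replicate 76 of day 0 or without replicate 77 of day 2. Macrophage markers summed to 58.3 and 50.5 CPM at day 0 and 71.5 and 37.4 CPM at day 2, and 1 of 12, Csf1r, was lower. Schwann cell markers summed to 141 and 124 CPM at day 0 and 25.1 and 27.3 CPM at day 2, with 3 of 6 lower. Skeletal muscle markers summed to at most 41.1 CPM in any of the 4 libraries, mesothelial markers to at most 11.6 CPM, and lymphocyte and mast cell markers to at most 1.33 CPM. In bulk RNA a smaller number of cells of a type and less RNA per cell cannot be told apart.

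Phosphodiesterases, adenylyl cyclases and protein kinase A subunits each had members that rose and members that fell. Of 35 tested genes of cyclic AMP synthesis, breakdown and sensing, 13 rose and 18 fell. Pde3b, the phosphodiesterase through which insulin lowers cyclic AMP in fat cells (chr7:114415281-114539251, plus strand), stood at 10.2 and 11.5 CPM at day 0 and 347 and 307 CPM at day 2. Both day 2 libraries lay far above both day 0 libraries, a 30.2-fold rise (4.92 on the log2 scale, SE 0.15, adjusted p = 2.63e-07 by edgeR). Prkar2b, the regulatory subunit of protein kinase A that marks adipose tissue, stood at 30.5 and 33.6 CPM at day 0 and 405 and 397 CPM at day 2 and rose 12.5-fold. Pde4d, a cyclic AMP phosphodiesterase whose gene CREB is known to switch on, rose 3.67-fold, from 24.2 and 22.04 to 77.2 and 92.7 CPM. The opposite was seen for Pde8b, a phosphodiesterase that IBMX does not block (chr13:95024454-95250336, minus strand). It stood at 31.4 and 34.1 CPM at day 0 and 0.714 and 1.40 CPM at day 2, a 31.02-fold fall (-4.95 on the log2 scale, SE 0.21, adjusted p = 8.60e-07 by edgeR), and the days did not overlap.

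Among the adenylyl cyclases, which make cyclic AMP, Adcy7 fell 13.5-fold from 31.4 and 27.6 to 2.21 and 2.16 CPM, whereas Adcy5 rose 2.93-fold from 42.7 and 49.1 to 136 and 133 CPM. The kinase anchor Akap12 fell 5.27-fold from 340.0 and 321 to 57.2 and 68.3 CPM, and the regulatory subunit Prkar1b 7.10-fold from 28.7 and 29.8 to 3.60 and 4.64 CPM. The catalytic subunit Prkaca stood at 118 and 121 CPM at day 0 and 123 and 118 CPM at day 2 and did not pass the test (0.01 on the log2 scale, SE 0.08, adjusted p = 0.885 by edgeR). Adrb3, the beta-adrenergic receptor of fat cells, rose 2.94-fold from 4.01 and 5.15 to 15.4 and 11.3 CPM, with another gene over 24.9% of its exonic length. Pde4d stood at 16.5 and 12.3 CPM at day 6, below its day 0 values, and Pde3b at 846 and 678 CPM, above its day 2 values.

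Of 32 tested CREB target genes 15 rose and 9 fell, 9 of the rises and 4 of the falls by more than 2-fold, and the median log2 change was 0.43. Rgs2, which damps signals from G protein-coupled receptors, stood at 3.71 and 4.65 CPM at day 0 and 79.1 and 75.9 CPM at day 2 and rose 18.7-fold (4.22 on the log2 scale, SE 0.17, adjusted p = 6.99e-07 by edgeR). Dio2, the deiodinase that makes active thyroid hormone inside the cell (chr12:90724552-90738438, minus strand), stood at 0.894 and 1.19 CPM at day 0 and 13.2 and 14.3 CPM at day 2, and at 3.84 and 1.90 CPM at day 6. Genes that respond to cyclic AMP within an hour rose by less, the transcription factors Nr4a1 1.97-fold and Egr1 1.98-fold and the kinase Sik1 1.80-fold. Nr4a1 stood at 46.9 and 50.6 CPM at day 0 and 91.5 and 100.4 CPM at day 2, and at 6.79 and 8.73 CPM at day 6. Subunits of the factor AP-1 went the other way, with Fosl2 falling 2.40-fold from 426 and 425 to 163.01 and 192 CPM and Jun 1.83-fold from 65.5 and 66.0 to 33.9 and 37.8 CPM. Cebpb, the early adipogenic factor that CREB induces within hours, stood at 116 and 117 CPM at day 0 and 125.4 and 109 CPM at day 2. Those values overlapped between days and did not pass the test (0.01 on the log2 scale, SE 0.09, adjusted p = 0.910 by edgeR).

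The palindromic cyclic AMP response element TGACGTCA, searched on both strands, lies in 1.88% of all 27025 RefSeq promoter windows of 300 bases (250 before to 50 after the start, GRCm38.p6), in 3.37% of those of tested genes, in 4.37% of those of genes higher by more than 2-fold and in 2.15% of those lower by more than 2-fold. It was in 2 of the 24 CREB list members with a window. The 250 bases before the RefSeq start of Dio2 (chr12:90739039-90739288, minus strand) hold it 95 bases upstream of that start. The RefSeq start lies upstream of the gene position given above, which comes from another annotation. These bases are shown because Dio2 had the largest change of the list members with this site, which is in capitals.
Dio2: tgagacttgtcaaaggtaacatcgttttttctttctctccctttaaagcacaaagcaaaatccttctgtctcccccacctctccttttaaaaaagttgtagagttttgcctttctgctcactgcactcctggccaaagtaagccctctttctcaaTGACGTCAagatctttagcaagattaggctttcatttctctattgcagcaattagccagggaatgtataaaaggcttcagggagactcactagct

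Of 26 tested glucocorticoid target genes 17 rose and 7 fell, 16 of the rises by more than 2-fold, with a median log2 change of 1.07. The lower count was 4 with library totals alone and without replicate 77 of day 0. Zbtb16, the zinc finger repressor PLZF (chr9:48654297-48836222, minus strand), stood at 0.331 and 0.288 CPM at day 0 and 79.4 and 79.3 CPM at day 2 and rose 251-fold (7.97 on the log2 scale, SE 0.13, adjusted p = 2.24e-08 by edgeR). Its day 0 values rest on 10 and 7 counts, its day 2 values on 2337 and 2205, and at day 6 it stood at 117 and 108 CPM. Lcn2, which codes for the secreted carrier lipocalin 2, rose 37.8-fold from 0.695 and 0.618 to 25.4 and 24.9 CPM. Fkbp5, the chaperone by which the receptor limits its own activity, rose 6.70-fold from 24.5 and 26.7 to 173 and 169.6 CPM, and Glul, glutamine synthetase, 7.51-fold from 63.0 and 68.7 to 513 and 475 CPM.

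The metallothionein genes, which bind zinc and respond to both glucocorticoid and metal, both rose. Mt1 (chr8:94179082-94180327, plus strand) stood at 123 and 91.0 CPM at day 0 and 1031 and 1074 CPM at day 2, a 9.83-fold rise. Mt2 rose 15.4-fold from 83.2 and 65.8 to 1128 and 1172 CPM. Another gene covers 73.5% of the exonic length of Mt2, so reads there could be left uncounted. In the day 6 medium, which has no dexamethasone, Mt1 stood at 588 and 390.3 CPM and Mt2 at 308 and 218 CPM. Errfi1, an inhibitor of the epidermal growth factor receptor, was likewise highest at day 2, with 119 and 121 CPM at day 0 and 349 and 362 CPM at day 2 and 162 and 146 CPM at day 6. Fkbp5 was highest at day 6, with 287 and 211 CPM. Nr3c1, the receptor itself, stood at 115 and 124 CPM at day 0 and 98.4 and 97.1 CPM at day 2. Its call (adjusted p = 0.00619 by edgeR, log2 change -0.29) was lost under 3 alternatives. The adjusted p was 0.0610 with library totals, 0.471 when replicate 77 of day 0 was left out and 0.0552 when replicate 77 of day 2 was. Timp3, the inhibitor of matrix metalloproteases, was the list's deepest fall, with 475 and 463 CPM at day 0 and 5.64 and 6.01 CPM at day 2, an 80.4-fold drop with no overlap. Another gene covers 21.3% of its exonic length.

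The glucocorticoid response element, searched on both strands as GNACA and TGTNC with 3 bases between, lies in 0.463% of all promoter windows, 0.327% of those of tested genes and in 1 of the 19 glucocorticoid list members with a window. That member is Mt1, whose 250 bases before the start (chr8:94178839-94179088, plus strand) are shown with the match, 94 bases upstream, in capitals.
Mt1: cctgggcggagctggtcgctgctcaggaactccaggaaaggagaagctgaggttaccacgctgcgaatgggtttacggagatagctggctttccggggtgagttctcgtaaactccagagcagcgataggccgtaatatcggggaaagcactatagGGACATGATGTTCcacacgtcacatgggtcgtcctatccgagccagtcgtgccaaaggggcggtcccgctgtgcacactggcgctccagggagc

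Of 39 tested PPAR gamma target genes 34 rose, 27 of them by more than 2-fold, and 1 fell, with a median log2 change of 2.24. Most code for the uptake, activation and storage of fatty acids. Fabp4, the fatty acid carrier of fat cells, stood at 43.5 and 53.7 CPM at day 0 and 3108 and 2932 CPM at day 2, and Acsl1, which activates fatty acids to their coenzyme A esters, at 29.3 and 31.2 CPM at day 0 and 1844 and 1713 CPM at day 2. Fabp4 rose 62.2-fold (SE 0.20 in log2) and Acsl1 58.8-fold (SE 0.13). Plin1, the coat protein of the lipid droplet, rose 28.8-fold from 13.05 and 18.2 to 478 and 418 CPM, and Gpd1, which makes the glycerol backbone, 42.3-fold from 1.69 and 3.34 to 106.8 and 101 CPM. Without replicate 77 of day 0 the log2 change of Gpd1 was 6.09, beside 5.40. Lpl, the lipase that frees fatty acids from circulating fat, rose from 725 and 820.4 to 5190.4 and 4943 CPM (6.56-fold). The member that fell was Cpt1a, the carnitine acyltransferase that lets fatty acids into mitochondria for burning, at 72.2 and 66.7 CPM at day 0 and 44.4 and 51.5 CPM at day 2 (-0.54 on the log2 scale, SE 0.10, adjusted p = 0.00165 by edgeR). The PPAR response element, searched on both strands as a pair of AGGNCA with 1 base between, lies in 0.381% of all windows, 0.202% of those of tested genes and none of the 25 of this list.

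All 15 tested thyroid hormone genes passed, 10 higher and 5 lower, and receptors and deiodinases each had members in both directions. Thra, the receptor alpha, fell 2.32-fold from 161 and 168 to 75.5 and 66.0 CPM, while Thrb, the receptor beta, rose 2.17-fold from 3.81 and 3.996 to 7.79 and 9.17 CPM. Slc16a10, a carrier of aromatic amino acids and thyroid hormone, rose 14.7-fold from 2.68 and 3.67 to 47.4 and 45.1 CPM. Dio3, the deiodinase that inactivates the hormone, fell 5.98-fold, from 27.98 and 28.4 to 4.22 and 5.22 CPM, against the 13.3-fold rise of Dio2. Thrsp, the lipogenic gene named for its response to the hormone, stood at 0.331 and 0.371 CPM at day 0 and 9.21 and 9.96 CPM at day 2 (4.76 on the log2 scale, SE 0.45, adjusted p = 3.36e-05 by edgeR). For each of these genes both day 2 libraries lay on 1 side of both day 0 libraries.

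Of 23 tested genes of prostaglandin synthesis and reception, 8 rose and 12 fell. The cyclooxygenases that indomethacin inhibits were both lower. Ptgs1 stood at 25.5 and 19.9 CPM at day 0 and 4.59 and 4.96 CPM at day 2, a 4.75-fold fall, and Ptgs2 at 15.4 and 15.6 CPM at day 0 and 5.61 and 7.41 CPM at day 2, a 2.39-fold fall. Tbxa2r, the thromboxane receptor (chr10:81328731-81335172, plus strand), had 31.2 and 30.3 CPM at day 0 and 0.510 and 0.683 CPM at day 2, a 51.4-fold fall (-5.68 on the log2 scale, SE 0.27, adjusted p = 1.17e-06 by edgeR) and stood at 9.61 and 15.01 CPM at day 6. Prostacyclin synthase, Ptgis, fell 4.31-fold from 93.6 and 105 to 19.9 and 26.2 CPM, and the receptor Ptger4 3.803-fold from 17.5 and 14.8 to 4.22 and 4.28 CPM. Against these, Pla2g16, a phospholipase of fat cells, rose 6.65-fold from 25.6 and 26.7 to 189.9 and 158 CPM, and Ptgfr, the receptor of prostaglandin F, 2.52-fold from 12.3 and 13.2 to 30.4 and 33.8 CPM. Ptgfr stood at 2.77 and 3.44 CPM at day 6.

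Of 37 tested insulin and IGF pathway genes 12 rose and 20 fell. Insr, the insulin receptor, stood at 53.7 and 53.3 CPM at day 0 and 129 and 127 CPM at day 2 (2.39-fold). Irs2, its docking protein, stood at 12.4 and 12.1 CPM at day 0 and 121 and 95.9 CPM at day 2 (8.85-fold). Tbc1d4, which holds back glucose transporter vesicles, rose 9.60-fold from 3.78 and 3.38 to 35.6 and 33.5 CPM. The transporter itself, Slc2a4, rose 7.12-fold but only to 5.95 and 5.83 CPM, against 445 and 322 CPM at day 6. Several inhibitors were among the falls. Trib3, a pseudokinase that binds Akt, fell 8.06-fold from 81.2 and 61.1 to 8.40 and 9.28 CPM, the receptor inhibitor Grb14 6.31-fold from 50.1 and 51.9 to 7.79 and 8.38 CPM, and Igfbp5, a binding protein of insulin-like growth factors, 7.88-fold from 243 and 299.8 to 29.4 and 39.5 CPM. Irs1, the other docking protein, fell 1.52-fold from 51.7 and 54.3 to 36.2 and 33.5 CPM, with another gene over 30.9% of its exonic length. The largest adjusted p of the genes named in this list is 0.000145 by edgeR.

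**Figure D2:**
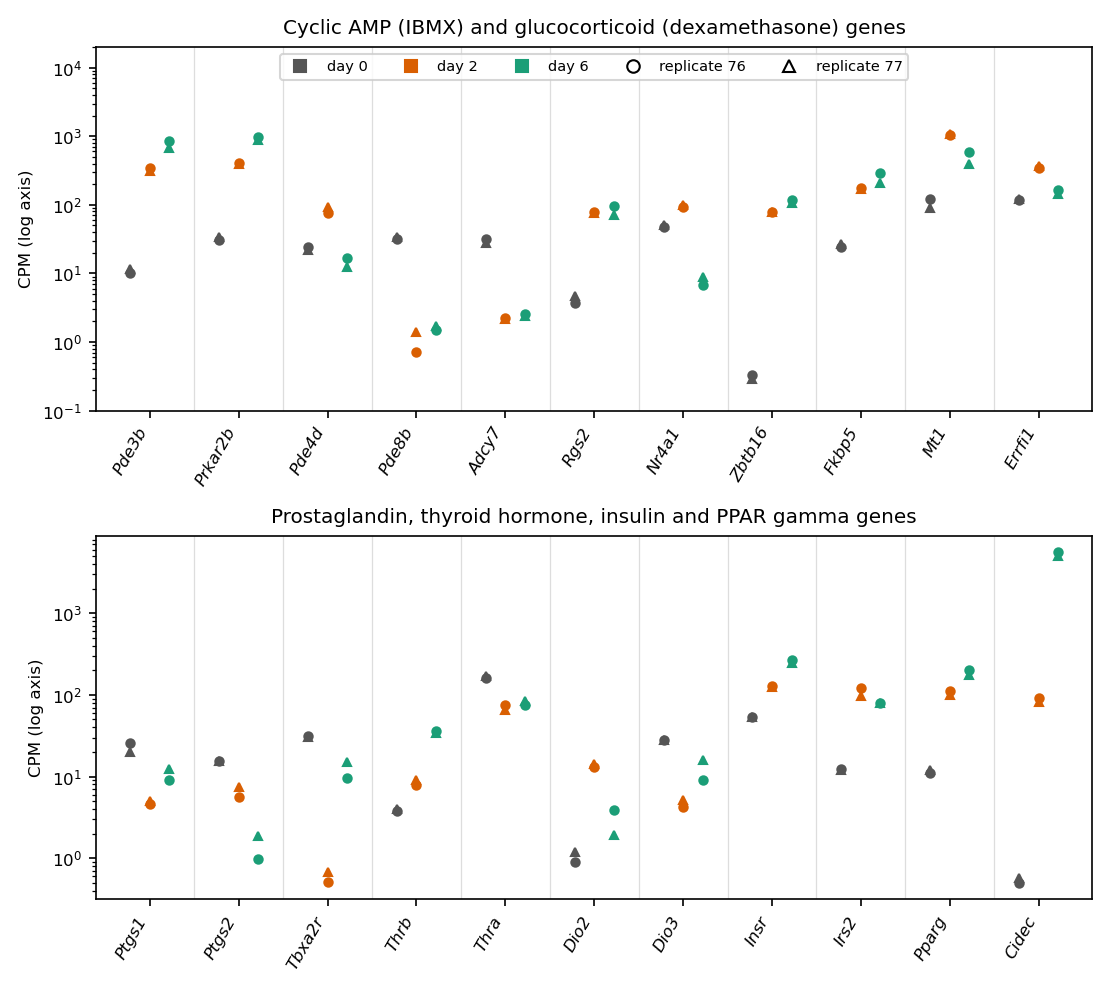
CPM (log axis) of genes tied to the agents of the medium in each library, with day 0 in grey, day 2 in orange, day 6 in green, replicate 76 as circles and replicate 77 as triangles. Among the genes plotted, Zbtb16 and Cidec show the widest gaps upward between day 0 and day 2, and Tbxa2r and Pde8b the widest downward.

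Transcription factors of adipogenesis did not move as a block. Of 36 tested, 13 rose and 15 fell, and the median log2 change was -0.04. Pparg itself (chr6:115360951-115490399, plus strand) stood at 11.1 and 11.99 CPM at day 0 and 112 and 100.2 CPM at day 2, a 9.20-fold rise, and Cebpa, which works with it, at 231 and 283 CPM at day 0 and 1291 and 1005 CPM at day 2 (4.47-fold). Klf15, which glucocorticoid induces, rose 2.46-fold from 14.6 and 14.9 to 38.2 and 34.2 CPM, Srebf1, the regulator of lipogenesis, 2.38-fold from 158 and 152 to 396 and 342 CPM, and Nr1h3, the oxysterol receptor, 2.72-fold from 8.15 and 7.83 to 23.9 and 19.6 CPM. Other factors were lower, with Cebpd at 138 and 144 CPM at day 0 and 75.6 and 82.2 CPM at day 2 (1.79-fold) and Klf4 at 140.4 and 134 CPM at day 0 and 44.6 and 48.2 CPM at day 2 (2.95-fold). Klf2, a repressor of Pparg, fell 16.6-fold from 40.8 and 39.4 to 2.35 and 2.48 CPM (-4.05 on the log2 scale, SE 0.15, adjusted p = 4.79e-07 by edgeR), and Zfp521 3.89-fold from 115 and 106 to 28.3 and 28.5 CPM. Klf5, which acts early in the program, rose 2.34-fold from 0.861 and 1.28 to 2.48 and 2.48 CPM, a call that did not hold when replicate 76 of day 0 was left out (adjusted p = 0.0638). Zfp423, which sets preadipocyte fate, stood at 14.4 and 14.5 CPM at day 0 and 12.001 and 13.3 CPM at day 2, with no overlap but no call (adjusted p = 0.0894 by edgeR).

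Lipid storage genes rose with few exceptions. Of 17 tested genes of lipolysis and the droplet coat 15 rose, 14 by more than 2-fold, and 1 fell, with a median log2 change of 3.10. Cidec, which fuses droplets, stood at 0.497 and 0.577 CPM at day 0 and 92.6 and 82.9 CPM at day 2 (7.35 on the log2 scale, SE 0.18, adjusted p = 1.70e-07 by edgeR). The lipases rose with the coat. Lipe, hormone-sensitive lipase, went from 7.95 and 8.49 to 219 and 202 CPM (25.7-fold), Pnpla2, the first triglyceride lipase, from 28.3 and 30.2 to 694 and 599 CPM (22.1-fold), and its inhibitor G0s2 from 22.7 and 22.2 to 201 and 184 CPM (8.57-fold). The exception was Plin3, the coat protein of small droplets in most cells, which fell 2.42-fold from 92.0 and 90.05 to 36.8 and 38.5 CPM. Plin3 is the only member of the list that fell.

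In fatty acid and triglyceride synthesis 23 of 31 tested genes rose, 17 by more than 2-fold, and 3 fell. Agpat9, which starts glycerolipid synthesis, stood at 0.729 and 0.412 CPM at day 0 and 78.4 and 74.4 CPM at day 2 (129-fold). The desaturase Scd1 rose 11.6-fold from 402 and 425 to 4660.2 and 4921 CPM, fatty acid synthase Fasn 3.95-fold from 300.3 and 337 to 1237 and 1281 CPM, and Pcx, pyruvate carboxylase, 13.9-fold from 39.9 and 45.02 to 625 and 556 CPM. Acacb, an acetyl-CoA carboxylase of mature fat, stood at 7.72 and 8.44 CPM at day 0 and 6.39 and 6.62 CPM at day 2 and did not pass (adjusted p = 0.0578 by edgeR), and at 569 and 477 CPM at day 6. Fads1, a desaturase of polyunsaturated fatty acids, fell 1.87-fold from 209 and 226 to 109 and 124 CPM. Of 35 tested cholesterol genes 18 rose, 4 of them beyond 2-fold, and 7 fell. The lower count was 2 without replicate 77 of day 0 and 4 without replicate 76 of day 2. The largest rises in that list were the exporters Abcg1 (6.42 and 5.15 to 22.9 and 21.8 CPM) and Abca1 (122 and 154 to 367 and 414 CPM). The sterol regulatory element, as TCAC and CCAC with 1 base between on both strands, lies in 1.22% of all windows, 1.06% of those of tested genes and 1 of the 24 of this list.

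Of 43 tested actomyosin and SRF target genes 38 fell, 27 by more than 2-fold, and 3 rose, with a median log2 change of -1.34. The summed level fell from 19403 and 19765 CPM to 7363 and 7619 CPM. Muscle-type isoforms had the largest falls. Acta2, smooth muscle actin (chr19:34241090-34255590, minus strand), stood at 1449 and 1418 CPM at day 0 and 13.6 and 16.9 CPM at day 2, calponin Cnn1 at 129 and 121 CPM at day 0 and 1.84 and 1.91 CPM at day 2, and Actg2, the enteric actin, at 79.3 and 67.9 CPM at day 0 and 0.986 and 0.863 CPM at day 2. The falls were 94.0-fold, 66.6-fold and 79.1-fold, and no day 2 library came near a day 0 library. Isoforms found in all cells fell too. Beta-actin, Actb, stood at 1713 and 1789.7 CPM at day 0 and 676 and 704 CPM at day 2 (2.54-fold) and the non-muscle myosin Myh9 at 1370.0 and 1376 CPM at day 0 and 306 and 352 CPM at day 2 (4.17-fold). Cofilin, Cfl1, which severs filaments, did not pass, with 647 and 660.5 CPM at day 0 and 638 and 595 CPM at day 2 (adjusted p = 0.386 by edgeR). The members that rose were Limk1, the kinase that inactivates cofilin (38.5 and 37.1 to 103 and 103 CPM, 2.71-fold), the GTPase Rhob (245 and 234 to 646 and 568 CPM, 2.53-fold) and Fhl1 (63.8 and 58.1 to 103 and 93.1 CPM, 1.61-fold). Mkl1, the actin-sensing partner of SRF, fell 1.84-fold from 75.01 and 76.3 to 39.6 and 42.5 CPM. Mural cell markers moved in the same direction, with a summed level of 165 and 162.6 CPM at day 0 and 62.9 and 57.2 CPM at day 2 and 6 of 8 lower, and their part in the result was not tested.

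The CArG box, the site of SRF, lies in 1.57% of all promoter windows, 1.37% of those of tested genes and in 7 of the 36 actomyosin list members with a window (both strands). Myl9, a myosin light chain (99.8-fold lower, from 219.7 and 235 to 1.87 and 2.70 CPM), had the largest change of those members. The 250 bases before its start (chr2:156775214-156775463, plus strand) are shown with the box, 161 bases upstream, in capitals.
Myl9: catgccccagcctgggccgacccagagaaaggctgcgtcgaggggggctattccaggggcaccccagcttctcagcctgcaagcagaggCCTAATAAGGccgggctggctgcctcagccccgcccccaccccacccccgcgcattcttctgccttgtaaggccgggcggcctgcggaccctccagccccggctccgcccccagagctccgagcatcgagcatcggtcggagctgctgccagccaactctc

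YAP and TAZ are coactivators that respond to tension and cell shape. Of 31 tested genes of the axis 21 fell, 15 by more than 2-fold, and 6 rose. The deepest falls were in target genes. Nov, a matricellular protein, stood at 358 and 340.4 CPM at day 0 and 0.952 and 1.01 CPM at day 2 (log2 change -8.47, SE 0.12). Ctgf, of the same family and the best known target, stood at 219.6 and 221 CPM at day 0 and 1.67 and 2.73 CPM at day 2 (log2 change -6.65, SE 0.25). Replicate counts at day 2 were 28 and 28 for Nov and 49 and 76 for Ctgf. Wisp2, a further member of that family, stood at 679 and 637 CPM at day 0 and 34.8 and 43.7 CPM at day 2, and Cyr61 at 355 and 402 CPM at day 0 and 60.1 and 79.5 CPM at day 2. At day 6 Cyr61 stood at 251 and 306 CPM, Wisp2 at 259 and 323 CPM and Nov at 13.9 and 15.8 CPM. Yap1 itself fell 1.46-fold from 218 and 225 to 149.6 and 155 CPM, and the inhibitory kinase Lats2 2.77-fold from 138 and 145 to 49.02 and 53.2 CPM, although 42.4% of the exonic length of Lats2 overlaps another gene and 56.5% of its 50-base words occur elsewhere. Wwtr1, which codes for TAZ, stood at 158 and 145 CPM at day 0 and 132 and 132 CPM at day 2. Its call (adjusted p = 0.0473 by edgeR) was lost in all alternatives tried except the fit of 4 libraries and the fit with the replicate block (largest adjusted p over these 0.393). The scaffold Sav1 rose 2.63-fold from 106.5 and 116 to 293 and 292 CPM, and another gene covers 25.4% of its exonic length.

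The TEAD site GGAATG, on both strands, lies in 14.6% of all windows, 12.01% of those of tested genes and in 14 of the 23 YAP and TAZ list members with a window. Of these, Ankrd1, a nuclear ankyrin repeat protein long used as a YAP readout, had the largest change of those whose window holds the site, with 5.96 and 5.97 CPM at day 0 and 0.884 and 0.144 CPM at day 2 (log2 change -3.50, or -5.32 without replicate 76 of day 2 and -2.73 without replicate 77). The day 2 value of replicate 77 rests on 4 counts. Tested members of the list without a window are outside this ranking. The 250 bases before its start (chr19:36119845-36120094, minus strand) hold the site 2 times, in capitals.
Ankrd1: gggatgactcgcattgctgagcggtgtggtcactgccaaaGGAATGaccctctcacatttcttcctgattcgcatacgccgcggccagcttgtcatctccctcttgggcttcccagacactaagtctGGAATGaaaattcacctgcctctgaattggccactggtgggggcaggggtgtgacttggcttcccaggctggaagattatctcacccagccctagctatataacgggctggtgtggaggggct

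Of 31 tested collagen genes 19 fell, 18 by more than 2-fold, and 5 rose, and the summed collagen level went from 98138 and 88931 CPM to 37436 and 38173 CPM. The list's median log2 change was -2.44, and -1.76 without replicate 77 of day 2. Col1a1 (chr11:94936224-94953042, plus strand) and Col1a2 (chr6:4504814-4541544, plus strand), code for the chains of type I collagen. Col1a1 stood at 30747 and 26129.6 CPM at day 0 and 2745 and 2864 CPM at day 2, and Col1a2 at 18399 and 17337 CPM at day 0 and 2731 and 2983 CPM at day 2. These were the largest losses of any tested gene in CPM (10.1-fold, SE 0.24 in log2, and 6.25-fold, SE 0.20). Col14a1, which sits on the surface of type I fibrils, fell 28.02-fold from 791 and 713 to 26.3 and 27.3 CPM, and the short-chain collagen Col8a1 153-fold from 263 and 239.9 to 1.60 and 1.69 CPM. Col5a1, a chain of the fibrillar type V, fell 3.12-fold from 5036 and 4654 to 1560.2 and 1544 CPM. Col3a1, another fibrillar collagen, fell less, 1.74-fold from 26293 and 23314 to 13797 and 14690.2 CPM. Its call (adjusted p = 0.00750 by edgeR) did not hold when replicate 76 of day 2 was left out, with an adjusted p of 0.0685.

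The collagens that rose were Col4a1, Col4a2, Col15a1, Col18a1 and Col5a3, and all but the last, a fibrillar chain of type V, belong to basement membranes. Col4a1 and Col4a2, neighbours on chromosome 8 that code for the main type IV chains, both rose. Col4a1 stood at 1322 and 1405 CPM at day 0 and 4563 and 4725 CPM at day 2, and Col4a2 at 1198 and 1246 CPM at day 0 and 2678 and 2649 CPM at day 2. The rises were 3.41-fold and 2.18-fold (adjusted p = 3.09e-06 and 1.87e-05 by edgeR), while the other type IV chains Col4a5 and Col4a6 fell 7.30-fold and 8.54-fold. Col15a1 stood at 263 and 335 CPM at day 0 and 1058 and 976 CPM at day 2, and at 400.03 and 493 CPM at day 6. Laminin chains went both ways. Lamb1 rose 1.89-fold from 676 and 613 to 1246 and 1189 CPM, Lamc1 1.46-fold and Lama4 1.33-fold, whereas Lamb2 fell 3.12-fold from 663 and 745 to 195 and 257 CPM and Lama2 2.47-fold. Over the 14 tested genes of laminins and their partners 3 rose and 8 fell, and 5 rose with no filter on low counts or with only the 4 libraries fitted.

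Of 42 tested matrix glycoproteins and crosslinkers 35 fell, 26 by more than 2-fold, and 3 rose. Thbs1, thrombospondin 1 (chr2:118111876-118127133, plus strand), stood at 9937 and 9401 CPM at day 0 and 315 and 450.0 CPM at day 2, a 25.3-fold fall (-4.66 on the log2 scale, SE 0.26, adjusted p = 2.57e-06 by edgeR). Fibulin 2, Fbln2, fell 4.14-fold from 7232 and 6607 to 1632 and 1710.3 CPM. Fibronectin, Fn1, fell 3.04-fold from 21282 and 18209 to 6057 and 6944 CPM, elastin, Eln, 17.9-fold from 103 and 103 to 5.30 and 6.22 CPM, and Lox, the crosslinking oxidase, 5.60-fold from 5349 and 4751 to 824 and 980.4 CPM. The days were apart by far more than the replicates for all of them. Versican, Vcan, a large proteoglycan of loose matrix, rose 2.59-fold from 799 and 645 to 1833 and 1905 CPM and then stood at 120.0 and 162 CPM at day 6. Sparcl1 rose 4.43-fold to 44.4 and 47.6 CPM, while its relative Sparc, also a collagen-binding protein, fell 3.34-fold from 11032 and 10314 to 3059.9 and 3339 CPM. Among 33 tested matrix proteases and inhibitors 9 rose and 16 fell. The membrane protease Mmp14 fell 3.95-fold from 1446 and 1405 to 365 and 356 CPM, and Adamts15, which cleaves versican and other proteoglycans, rose 3.25-fold from 119.9 and 146 to 433 and 432 CPM.

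Of 26 tested integrins, cadherins and catenins 19 fell and 2 rose. Both that rose are the alpha chains of laminin receptors. Itga6 stood at 4.07 and 2.92 CPM at day 0 and 48.9 and 46.6 CPM at day 2 (13.5-fold) and Itga7 at 5.30 and 2.80 CPM at day 0 and 27.9 and 22.7 CPM at day 2 (6.12-fold). The collagen receptor chains Itga11 and Itga1 fell, Itga11 37.3-fold from 486 and 416 to 10.8 and 13.3 CPM and Itga1 5.06-fold from 73.5 and 76.5 to 13.6 and 16.04 CPM. The cadherins Cdh11 and Cdh2, which join mesenchymal cells, fell 3.40-fold to 143 and 166 CPM and 1.85-fold to 73.4 and 80.6 CPM. No integrin or cadherin of the list apart from Itga6 and Itga7 passed upward.

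**Figure D3:**
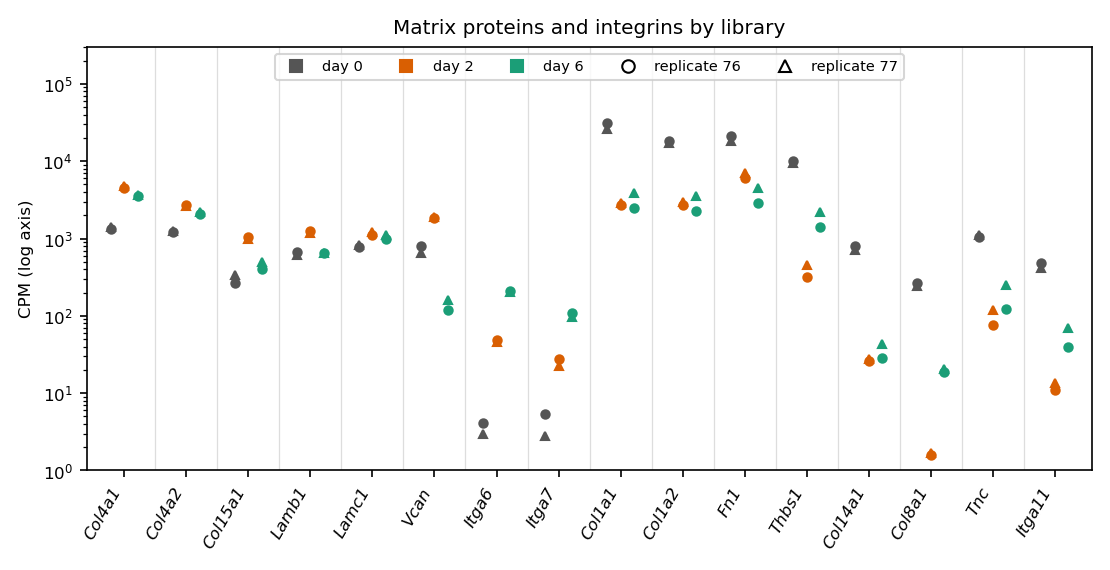
CPM (log axis) of matrix proteins and integrins in each library, with day 0 in grey, day 2 in orange, day 6 in green, replicate 76 as circles and replicate 77 as triangles. The 8 genes on the left, from Col4a1 to Itga7, are higher at day 2 than at day 0 in both replicates, and the 8 on the right, from Col1a1 to Itga11, are lower.

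Of 29 tested markers of adipose progenitors 22 fell and 5 rose, and the higher count was 2 without replicate 76 of day 0 or without replicate 77 of day 2. Thy1 fell 3.78-fold from 685 and 709 to 173 and 196 CPM, and Pdgfrb 4.83-fold from 556 and 516 to 101 and 121 CPM. Mfap5, a microfibril protein of multipotent progenitors, fell 13.3-fold from 495 and 509.8 to 29.9 and 45.8 CPM. Clec11a fell 19.8-fold from 28.3 and 32.1 to 1.67 and 1.37 CPM. Ly6a, which codes for the sorting antigen Sca-1, stood at 586 and 534 CPM at day 0 and 616 and 688 CPM at day 2 and did not pass (adjusted p = 0.235 by edgeR). Gelsolin, Gsn, an actin-severing protein, had the largest gain of any tested gene in CPM, with 861 and 942 CPM at day 0 and 6365 and 5772 CPM at day 2. That is a 6.73-fold rise (SE 0.13 in log2).

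Of 42 tested Wnt pathway genes 24 fell, 17 by more than 2-fold, and 8 rose, 1 of them (Fzd9) beyond 2-fold. Canonical Wnt signals are known to hold precursors back from the fat cell fate. Wnt5a, a non-canonical ligand, stood at 126 and 139 CPM at day 0 and 14.2 and 14.8 CPM at day 2 (9.10-fold lower), and the receptor Fzd2 at 223 and 201 CPM at day 0 and 46.1 and 44.2 CPM at day 2 (4.70-fold lower). Secreted antagonists fell as well. Sfrp1, which binds Wnt ligands, stood at 6209 and 6435 CPM at day 0 and 1326 and 1485 CPM at day 2 (4.50-fold), and Dkk2 at 87.9 and 126 CPM at day 0 and 3.94 and 3.17 CPM at day 2 (29.9-fold). Fzd4 rose 1.95-fold from 102 and 122 to 211 and 227 CPM. Beta-catenin, Ctnnb1, stood at 603 and 610.1 CPM at day 0 and 558 and 569.8 CPM at day 2 (adjusted p = 0.275 by edgeR).

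In the TGF beta and BMP pathway 32 of 45 tested genes fell, 19 by more than 2-fold, and 8 rose, a count that was 5 without replicate 76 of day 0. Several ligands fell, Tgfb3 5.12-fold from 86.8 and 79.05 to 15.8 and 16.7 CPM, the activin subunit Inhba 4.50-fold from 41.9 and 50.3 to 8.80 and 11.7 CPM, and Bmp6 5.05-fold from 23.3 and 25.1 to 4.05 and 5.54 CPM. Tgfbi, a matrix protein named for its induction by TGF beta, fell 16.7-fold from 81.1 and 58.9 to 4.01 and 4.39 CPM. The type I receptor Tgfbr1 instead rose 1.87-fold from 86.1 and 91.7 to 152 and 181 CPM, and Id1, a BMP target, 2.38-fold from 22.4 and 30.7 to 62.3 and 63.6 CPM. Of 21 Notch and Hedgehog genes 14 fell and 3 rose (Notch1, Ptch1 and Jag1), and 8 fell without replicate 77 of day 0 and 9 without replicate 77 of day 2. Cdon, a Hedgehog coreceptor, fell 2.57-fold from 162 and 162 to 58.5 and 67.7 CPM.

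Of 46 tested genes of FGF, PDGF and VEGF signals 14 rose and 25 fell. Klb, the coreceptor of endocrine FGF signals in fat, stood at 0.331 and 0.330 CPM at day 0 and 13.2 and 11.8 CPM at day 2 (37.3-fold). Fgf10, a ligand that promotes precursor growth, rose 5.60-fold from 22.98 and 33.2 to 146 and 168 CPM, and the feedback inhibitor Spry4 6.07-fold from 5.33 and 6.84 to 39.1 and 34.3 CPM. The receptor Pdgfrb and the ligand Pdgfd fell together, Pdgfd 13.2-fold from 53.9 and 68.3 to 3.84 and 5.40 CPM. Vegfa, the main angiogenic ligand, did not pass, with 351 and 323 CPM at day 0 and 384 and 344 CPM at day 2 that overlapped between days (adjusted p = 0.405 by edgeR). Of 42 tested axon guidance genes, which stromal cells use for contact and repulsion, 33 fell and 4 rose. The semaphorins Sema3c (14.8-fold, 192 and 157 to 11.7 and 11.9 CPM) and Sema3b (38.7-fold, 34.7 and 34.8 to 0.884 and 0.899 CPM) fell, and the semaphorin receptor Plxnd1 rose 3.09-fold from 160.3 and 174 to 528 and 502 CPM.

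Every tested gene of DNA replication and of mitosis was higher at day 2. That is 45 of 45 genes of origin licensing and replication, 38 beyond 2-fold, and 53 of 53 genes of mitosis and cytokinesis, 49 beyond 2-fold, with median log2 changes of 1.5 and 1.51. The summed replication level stood at 899.7 and 960.4 CPM at day 0, 2689.6 and 2529 CPM at day 2 and 674 and 738 CPM at day 6. The mitosis sum stood at 974 and 983, 2768 and 2727, and 297 and 377 CPM on the same days. Day 2 lay above day 0 in both replicates, and day 6 lay below it. Cdc45, part of the replicative helicase, stood at 6.79 and 7.003 CPM at day 0 and 36.4 and 37.6 CPM at day 2 (5.37-fold), and Cdc6, which loads the helicase, at 4.47 and 5.15 CPM at day 0 and 23.3 and 21.9 CPM at day 2 (4.71-fold). Of the mitotic genes, Hmmr stood at 14.2 and 13.9 CPM at day 0 and 68.1 and 65.7 CPM at day 2 (4.76-fold), the spindle checkpoint kinase Ttk at 4.87 and 4.04 CPM at day 0 and 20.7 and 18.5 CPM at day 2 (4.38-fold) and the chromosome passenger Birc5, survivin, at 10.1 and 10.4 CPM at day 0 and 44.2 and 39.7 CPM at day 2 (4.09-fold). The call of 1 replication gene (Gins4) and 2 mitosis genes (Kif23 and Cdc25b) was lost in at least 1 alternative, with a largest adjusted p of 0.251.

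Of 36 tested genes of G1 control 24 rose and 7 fell, the lower count being 4 without replicate 77 of day 0. Cyclins E rose, Ccne1 3.84-fold from 13.4 and 11.6 to 49.5 and 46.7 CPM and Ccne2 5.91-fold from 4.37 and 4.94 to 28.9 and 25.97 CPM. Myc rose 5.23-fold from 29.3 and 28.8 to 161 and 142 CPM and stood at 28.01 and 28.1 CPM at day 6, near its day 0 level. Ccnd1, cyclin D1, went the other way, from 55.3 and 72.1 to 5.92 and 5.97 CPM and 43.2 and 62.5 CPM at day 6, with 23.4% of its exonic length under another gene. The inhibitor Cdkn1b, p27, fell 1.63-fold from 106.8 and 109.8 to 65.7 and 67.5 CPM, and Cdkn1a, p21, stood at 306 and 310.0 CPM at day 0 and 286 and 266 CPM at day 2 and did not pass (adjusted p = 0.112 by edgeR).

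An E2F site (TTTGGCGC, TTTCCCGC, TTTGCCGC or TTTCGCGC, both strands) lies in 2.32% of all windows and 3.99% of those of tested genes. It was in 12 of the 37 replication genes with a window and in 5 of the 43 mitosis genes, whereas the CCAAT box, in 37.9% of all windows, was in 25 and 32 of them. The 250 bases before the start of Cdc6 (chr11:98907901-98908150, plus strand) are shown because it had the largest change of the replication genes with the site, which is in capitals, 138 bases upstream on the opposite strand.
Cdc6: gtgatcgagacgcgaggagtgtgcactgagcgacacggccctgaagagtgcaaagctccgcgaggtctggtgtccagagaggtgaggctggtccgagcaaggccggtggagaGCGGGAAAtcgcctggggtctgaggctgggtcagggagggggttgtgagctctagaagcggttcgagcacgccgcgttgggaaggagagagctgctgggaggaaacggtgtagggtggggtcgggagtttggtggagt

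Of 44 tested genes of ribosome biogenesis 43 rose, 34 beyond 2-fold, and none fell, with a median log2 change of 1.35. Dkc1, the pseudouridine synthase, stood at 18.1 and 16.3 CPM at day 0 and 86.6 and 86.1 CPM at day 2 (5.01-fold), Nolc1, a nucleolar phosphoprotein, at 39.2 and 40.5 CPM at day 0 and 168 and 157 CPM at day 2 (4.08-fold), and nucleolin, Ncl, at 381 and 381 CPM at day 0 and 1053 and 997 CPM at day 2 (2.69-fold). Of 60 tested cytosolic ribosomal protein genes 46 rose, none beyond 2-fold, and none fell, with a median log2 change of 0.32. That count was 21 without replicate 76 of day 2. Many of these genes have processed copies elsewhere, so their values are uncertain. Proteasome subunits rose evenly, 30 of 32, with 2 beyond 2-fold (Psma1 at 69.4 and 73.5 CPM at day 0 and 200.2 and 198 CPM at day 2, and Psma5).

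Of 37 tested tRNA synthetase and amino acid genes 9 rose and 15 fell. Atf5 stood at 589.7 and 587 CPM at day 0 and 158 and 151 CPM at day 2 (3.82-fold lower), Ddit3, which codes for the stress factor CHOP, at 59.3 and 49.2 CPM at day 0 and 18.1 and 19.6 CPM at day 2 (2.88-fold lower), and Slc7a5, a carrier of large neutral amino acids, at 258 and 216 CPM at day 0 and 118 and 112 CPM at day 2 (2.06-fold lower). Atf4, the main activator of the amino acid response, fell 1.47-fold from 249 and 234 to 163.5 and 165 CPM. The cystine carrier Slc7a11 rose 3.16-fold from 9.01 and 8.28 to 25.8 and 28.95 CPM. Of 27 tested genes of folding in the endoplasmic reticulum 11 rose and 6 fell, the lower count being 3 with library totals or without replicate 77 of day 0. Herpud1, which aids degradation there, was the only fall beyond 2-fold in that list (3.27-fold, from 90.9 and 84.4 to 26.4 and 27.2 CPM).

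Mitochondrial genes rose broadly. Of 75 tested nuclear subunits of the respiratory chain 69 rose, 27 beyond 2-fold, and none fell, with a median log2 change of 0.86, and of 75 mitochondrial ribosomal protein genes 69 rose and 4 fell, with 0.80. Cycs, cytochrome c, stood at 52.5 and 53.6 CPM at day 0 and 360.4 and 324 CPM at day 2 (6.45-fold), although 28.2% of its 50-base words occur elsewhere, and Atp5b, the catalytic subunit of ATP synthase, at 674 and 696 CPM at day 0 and 1504 and 1392 CPM at day 2 (2.11-fold). Of 12 tested protein genes of the mitochondrial genome 10 rose. mt-Nd1 stood at 558 and 598 CPM at day 0 and 1621 and 1747 CPM at day 2 (2.91-fold) and mt-Cytb at 742 and 847 CPM at day 0 and 1592 and 1824 CPM at day 2 (2.15-fold). mt-Co1, a subunit of cytochrome c oxidase, rose 1.80-fold from 2284 and 2494 to 3916 and 4668 CPM, with 51.1% of its 50-base words found elsewhere. Summed nuclear chain subunits stood at 5744 and 5776 CPM at day 0, 11255 and 10482 CPM at day 2 and 38966 and 32197 CPM at day 6. Fatty acid oxidation had 25 of 32 genes higher and 5 lower. Acadl, a long-chain acyl-CoA dehydrogenase, rose 4.27-fold from 50.2 and 52.03 to 219 and 217 CPM.

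Among 31 tested genes of heat production 17 rose, 13 beyond 2-fold, and 9 fell. Elovl3 had the largest fitted change of the list (8.01 on the log2 scale, SE 0.34, adjusted p = 7.91e-07 by edgeR). It had 2 and 0 counts at day 0 and 285 and 327 at day 2. At the adjusted library sizes Elovl3 was 291 times higher (95% counting interval 80.3 to 2411). Ppargc1b, the coactivator related to the one in the series title, stood at 0.861 and 0.906 CPM at day 0 and 31.2 and 24.9 CPM at day 2 (4.99 on the log2 scale, SE 0.17, adjusted p = 3.45e-07 by edgeR). Ppargc1a itself stood at 0.894 and 0.700 CPM at day 0 and 5.20 and 5.43 CPM at day 2 (log2 change 2.71, SE 0.20). Naa10, the amino-terminal acetyltransferase of the title (chrX:73916873-73921944, minus strand), had 7.42 and 6.59 CPM at day 0 and 16.1 and 13.7 CPM at day 2, a 2.12-fold rise. Another gene covers 11.6% of the exonic length of Naa10, and 18.3% of its 50-base words occur elsewhere. Of 13 tested genes of amino-terminal acetyltransferases and their auxiliary subunits 9 rose and 2 fell. Naa50 (2.45-fold), Naa16 (2.39-fold) and Naa25 (2.14-fold) rose by slightly more than Naa10. Slc27a1, a fatty acid transporter, rose 3.50-fold from 22.5 and 19.6 to 78.6 and 68.8 CPM. Ucp1, which lets brown and beige fat mitochondria release energy as heat, was at 0 in both libraries of day 0, with 13 and 10 counts at day 2 and 1 and 0 counts at day 6. Cited1, proposed as a beige marker, had 2 and 1 counts at day 0 and 77 and 118 at day 2. At the adjusted library sizes Cited1 was 61.9 times higher (95% counting interval 20.9 to 303). Ear2, of the same list, rose 8.14-fold, from 4 and 3 counts at day 0 to 38 and 24 at day 2. Of its 50-base words 41.5% occur elsewhere. Other members of the list fell, some of them proposed beige markers. Tmem26 stood at 4.77 and 3.25 CPM at day 0 and 0.340 and 0.216 CPM at day 2 (14.2-fold lower) and Sp100 at 37.9 and 25.7 CPM at day 0 and 2.99 and 5.75 CPM at day 2 (7.33-fold lower). Tbx1 stood at 3.11 and 3.67 CPM at day 0 and 2.24 and 2.05 CPM at day 2, and its call (adjusted p = 0.0255 by edgeR) was lost in 5 alternatives, without replicate 77 of day 0 and without either day 2 library among them (adjusted p up to 0.279). Eva1a had 21 and 12 counts at day 0 and 3 and 0 at day 2, and its call (adjusted p = 0.00683 by edgeR) did not hold when replicate 76 of day 0 was left out (adjusted p = 0.0504). Epsti1 and Cd40 were too low to test, with 9 and 6 counts (Epsti1) and 10 and 8 counts (Cd40) at day 0 and 0 and 0, and 0 and 2, at day 2. Reads carry no molecular identifiers, so such intervals and floors cover counting error only. Ckb, the creatine kinase of a heat-producing creatine cycle, fell 8.16-fold from 59.5 and 64.6 to 7.72 and 7.48 CPM, and Slc6a8, the creatine carrier, 1.76-fold from 141 and 149 to 81.7 and 83.6 CPM.

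Of 35 tested interferon-stimulated genes 33 fell, 29 by more than 2-fold, and none rose, with a median log2 change of -2.85 (-2.31 without replicate 76 of day 0). The replicates of a day stood well apart. Ifit1, an RNA-binding effector, stood at 42.6 and 16.7 CPM at day 0 and 0.544 and 2.05 CPM at day 2, Isg15, a ubiquitin-like modifier, at 41.5 and 14.2 CPM at day 0 and 0.442 and 2.37 CPM at day 2, and Irf9, a subunit of the interferon-activated complex, at 59.7 and 41.7 CPM at day 0 and 9.04 and 15.8 CPM at day 2. Replicate 76 was the higher of the pair at day 0 and the lower at day 2 for all of these, and the days did not overlap. Taken within a replicate number, the list's median log2 change was -3.29 for 76 and -1.85 for 77. The log2 change of Ifit1 was -4.54 (SE 0.59, adjusted p = 0.000201 by edgeR) and moved to -3.70 without replicate 76 of day 0, -3.85 without replicate 76 of day 2 and -5.75 without replicate 77 of day 2. For Isg15 the log2 change was -4.34, and -3.35, -3.55 and -5.96 without the same libraries. At day 6 Ifit1 stood at 29.6 and 41.9 CPM and Isg15 at 14.03 and 31.2 CPM. Beside this list, 1 of the 12 macrophage markers was lower and none higher.

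The interferon-stimulated response element, searched on both strands as a pair of GAAA with 2 bases between, lies in 3.49% of all windows, 2.98% of those of tested genes and in 13 of the 26 interferon list members with a window. Ifit3, an Ifit1 partner (36.8-fold lower, from 44.2 and 22.7 to 0.680 and 1.15 CPM, with 51.2% of its 50-base words found elsewhere), is shown because its change was the largest among these. The 250 bases before its start (chr19:34583279-34583528, plus strand) hold the element 2 times, in capitals.
Ifit3: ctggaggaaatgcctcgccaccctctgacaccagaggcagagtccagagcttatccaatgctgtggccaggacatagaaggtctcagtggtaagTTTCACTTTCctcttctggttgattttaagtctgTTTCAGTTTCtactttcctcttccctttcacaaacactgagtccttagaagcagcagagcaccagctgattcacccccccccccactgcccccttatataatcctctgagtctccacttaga

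Of 18 tested antigen presentation genes 14 fell and 1 rose, and among the falls was B2m, the light chain of class I molecules (1.92-fold, 279.5 and 273 to 132 and 156 CPM). Of 30 tested chemokines, cytokines and acute phase genes 8 rose and 16 fell, and 5 rose without replicate 77 of day 2. Cxcl13, a B cell attractant, rose from 0.265 and 0.247 to 78.0 and 95.7 CPM and stood at 1.07 and 1.80 CPM at day 6. Saa3, an acute phase protein of fat, was also highest at day 2, with 3.41 and 4.74 CPM at day 0 and 45.5 and 62.0 CPM at day 2 and 2.19 and 2.24 CPM at day 6. Cxcl14, abundant in resting stroma, fell 5.94-fold from 769.9 and 839.9 to 128 and 143 CPM, and Cxcl12 3.08-fold from 1316 and 1352 to 452 and 414 CPM. The acute phase serpin Serpina3n rose 12.7-fold from 136 and 185 to 1896 and 2172 CPM, and Fth1, ferritin heavy chain, 4.798-fold from 1076 and 1129 to 5002 and 5578 CPM. At day 6 Serpina3n stood at 743 and 818 CPM and Fth1 at 1806 and 2029 CPM.

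Of 24 tested adipokines and secreted adipocyte proteins 11 rose and 6 fell. Adipoq, adiponectin, stood at 10.4 and 13.2 CPM at day 0 and 99.3 and 85.1 CPM at day 2, against 2302 and 2031 CPM at day 6, and Nampt rose 3.22-fold from 56.7 and 52.1 to 167 and 183 CPM. Apelin, Apln, was highest at day 2, with 40.7 and 45.8 CPM at day 0 and 121 and 124.8 CPM at day 2 and 31.5 and 17.8 CPM at day 6. The adiponectin relatives C1qtnf2 and C1qtnf3 fell, C1qtnf2 39.3-fold from 11.4 and 15.1 to 0.374 and 0.288 CPM and C1qtnf3 43.4-fold from 31.4 and 25.004 to 0.714 and 0.575 CPM. Of 37 tested metallothionein, antioxidant and hypoxia genes 17 rose and 11 fell. Sod2, the mitochondrial superoxide dismutase, rose 5.22-fold from 50.1 and 57.1 to 275 and 285 CPM and catalase, Cat, 4.25-fold, whereas Sod3, the secreted form, fell 3.70-fold from 648 and 612 to 162.6 and 178 CPM. Hif1a fell 2.35-fold from 427 and 328 to 156 and 165 CPM and adrenomedullin, Adm, a hypoxia target, 10.1-fold from 160.1 and 170.1 to 13.2 and 19.7 CPM.

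Of 20 tested clock genes 5 rose and 10 fell. The output factor Dbp fell 8.004-fold from 42.8 and 38.6 to 5.27 and 4.89 CPM and Per3 5.37-fold from 42.7 and 43.05 to 7.65 and 8.31 CPM, while Per1, which glucocorticoid and cyclic AMP induce, rose 2.13-fold from 35.7 and 32.5 to 70.2 and 75.2 CPM. The labels give no hour of collection, so time of day cannot be told apart from the medium. Hox genes, which keep a record of body position, had 1 of 29 tested higher and 19 lower, with 11 lower without replicate 77 of day 0 or 12 without replicate 77 of day 2. Hoxa9 rose 2.03-fold from 18.4 and 20.3 to 41.2 and 37.5 CPM, and Hoxb9 fell 3.69-fold from 53.3 and 52.03 to 14.8 and 13.8 CPM.

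**Figure D4:**
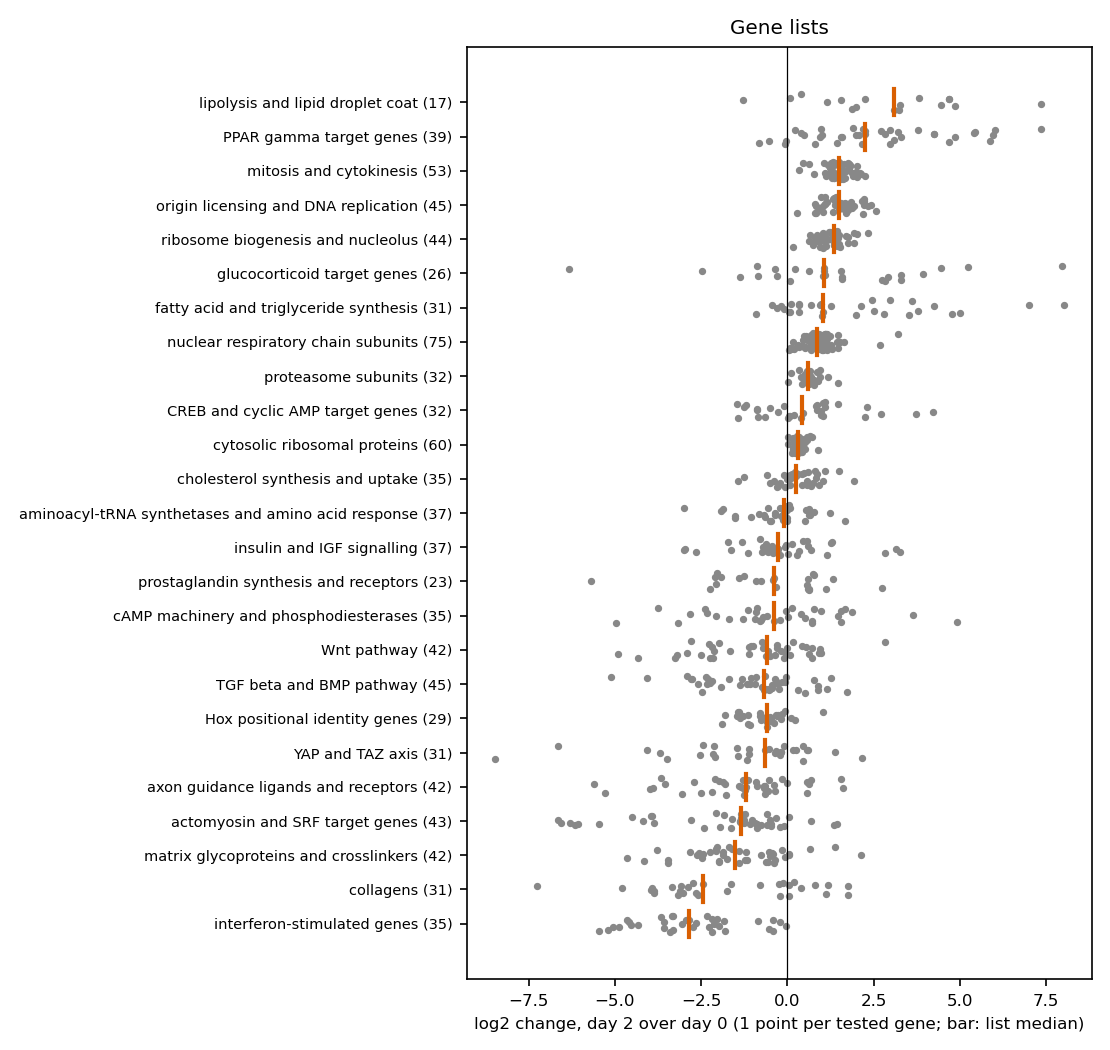
Log2 change from day 0 to day 2 of each tested gene (grey points) in 25 gene lists, with the list's median as an orange bar and the number of tested genes in brackets. Lipid droplet genes, with a median of 3.10, and interferon-stimulated genes, with a median of -2.85, mark the ends, and the cytosolic ribosomal proteins form the tightest group.

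**Figure D5:**
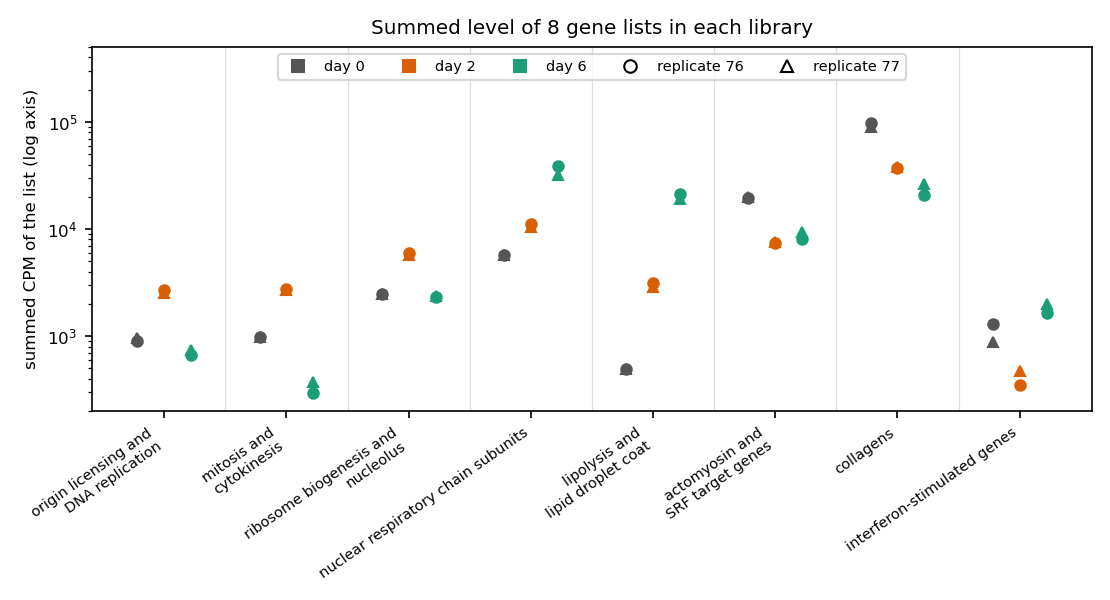
Summed CPM (log axis) of 8 gene lists in each library, with day 0 in grey, day 2 in orange, day 6 in green, replicate 76 as circles and replicate 77 as triangles. Replication and mitosis sums peak at day 2, droplet and respiratory sums climb through day 6, and the interferon sum is lowest at day 2.

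By size of change alone, the 10 largest rises among genes with at least 10 CPM in both day 2 libraries were led by Acot5, a peroxisomal thioesterase with 0 counts at day 0 and 20.9 and 18.8 CPM at day 2, at least 178-fold above a floor of 3 counts per library, with 22.8% of its 50-base words found elsewhere. The others were Cxcl13, Zbtb16, Map7d2, Serpina3m, Cidec, Fam83a, Agpat9, Car2 and Cd36. Car2, carbonic anhydrase 2, stood at 0.298 and 0.0824 CPM at day 0 and 22.1 and 18.7 CPM at day 2, and its log2 change of 6.63 was 7.87 without replicate 76 of day 0. Serpina3m, a close relative of Serpina3n, stood at 0.265 and 0.412 CPM at day 0 and 54.97 and 66.5 CPM at day 2. Of the 50-base words of Serpina3m 19.1% occur elsewhere. The 10 largest falls were Megf6, Nov, Cdh3, Col8a1, Lrrc15, Ctgf, Myl9, Sorcs2, Cemip and Acta2. Megf6, a protein with epidermal growth factor repeats, had 911 and 514 counts at day 0 and 0 and 2 at day 2. At the adjusted library sizes Megf6 was 748 times lower (95% counting interval 207 to 6186). Its fitted log2 change of -9.34 was -8.38 without replicate 76 of day 2 and -12.34 without replicate 77. Cemip, which breaks down hyaluronan, stood at 935 and 1009 CPM at day 0 and 7.34 and 13.02 CPM at day 2, and Lrrc15, a marker of activated fibroblasts, at 27.02 and 28.2 CPM at day 0 and 0.238 and 0.216 CPM at day 2. For each of these 20 genes the days did not overlap.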

How the data were processed

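RNA from cultured inguinal stromal-vascular cells was sequenced at 3 days of beige induction, with 2 libraries a day, numbered 76 and 77. The authors deposited 1 table of raw read counts per gene. Its column names carry the word RPKM, but its values are whole numbers that sum to different totals. Per the submitters' processing notes, TopHat2 2.0.13 and HTSeq 0.9.1 were used on the mm10 build. For the annotation, strand setting and read-assignment mode, nothing is given in the sources used here. Of all reads in the table, 2.82 to 3.23% lay in no gene, 4.70 to 4.91% were ambiguous between genes and 4.16 to 6.65% did not align uniquely in the 4 libraries of days 0 and 2. These summary lines were left out of library sizes and tests. Ambiguous reads were not counted, so overlapping genes and near-identical copies are understated.

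Counts were tested with edgeR 4.0.16 in R 4.3.3 (trimmed mean of M-values, filterByExpr, quasi-likelihood test). All 6 libraries entered 1 fit, with 3 residual degrees of freedom and a common biological coefficient of variation of 0.0830. Standard errors (SE) are the log2 change divided by the square root of the F statistic. Calls use Benjamini-Hochberg adjustment over all tested genes at 0.05. Alternatives were library totals alone, DESeq2 size factors in edgeR, no filter on low counts, DESeq2 1.42.0, a fit of the 4 libraries of days 0 and 2, a replicate block, and each library left out in turn. The edgeR fit was also run on simulated counts in which few genes changed. That run does not cover a change as broad as the one seen here.

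The labels do not say what the replicate numbers mark. Same-numbered libraries deviated together from their day means only weakly (r = 0.109 for days 0 and 2, 0.112 for days 0 and 6 and 0.213 for days 2 and 6). The rank correlation for days 0 and 2 was 0.059. A pairing by number was fitted only in the alternative with the replicate block. The folds, standard errors and calls given are those without it. Replicates of a day differed by more than counting noise (chi-square over its degrees of freedom 6.75 for day 0 and 7.53 for day 2).

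The gene lists and named genes were chosen with earlier results of these data known. Named are list members with large changes among those called with a mean of at least 5 CPM, though not every such member is given. Also named are the most abundant members, the receptors and enzymes the medium acts on, members at 0 and the 2 title genes. Over all genes, the 10 largest CPM gains and losses were ranked. So were the 10 largest fitted rises and falls with at least 10 CPM in both libraries of the higher day. A few further members are named for what they are known for, chosen after their values were seen. Positions are from GENCODE M21 on GRCm38 and promoter sequences from RefSeq on GRCm38.p6.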

Additional observations from a re-analysis of the deposited data

How the results depend on the processing

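The number of genes called at day 2 against day 0, 9704, was 9706 with library totals alone, 9696 with DESeq2's size factors, 10101 with no filter, 8950 with DESeq2 and 10191 with the 4 libraries fitted alone. Leaving out 1 library gave 8140 to 8543 genes, and the lone library of that day was then assumed to vary like the others. With the replicate block 9847 genes were called, and of the 1280 called genes of the lists and top ranks 8 lost their call under it. In all, 1068 of the 1280 kept their call in every alternative, 212 lost it in at least 1, and none changed direction. The median log2 change of the macrophage markers, -0.10, changed sign with library totals alone (0.010), without replicate 77 of day 0 (0.020) and without replicate 77 of day 2 (0.38), and leaving out each library gave -0.37 to 0.38. The cause was not tested. Depth limits the genes listed at 0 counts, where 3 counts per library is the floor.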

Other observations

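Small nucleolar RNA genes, which guide the modification of ribosomal RNA, were not part of any list. Of 31 tested, 21 were higher at day 2 and none was lower (edgeR, Benjamini-Hochberg adjustment), with a median log2 change of 1.36. This was the largest median of the gene classes compared. Transcripts of the mitochondrial genome took 0.502% and 0.555% of the counts of the day 0 libraries and 1.13% and 1.29% at day 2.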
